A study of Rattus norvegicus with 5 samples.

Results

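The insulin-like growth factor (IGF) binding proteins are secreted proteins that hold IGF-I and IGF-II outside the cell, lengthen or limit their action, and are cut by proteases that release the growth factor. The family examined here is Igfbp1 to Igfbp7, 7 of the 14217 genes named on the array, taken as every probe set whose annotation gives exactly 1 symbol among these 7. It comprised 13 of the 31099 probe sets on the array: 1 each for Igfbp1, Igfbp2, Igfbp4 and Igfbp7, 2 for Igfbp3, 2 for Igfbp6 and 5 for Igfbp5. A filter on dim probe sets (mean over all 5 arrays above the 30th percentile) kept 12 of them, for 6 genes. The Igfbp1 probe set lay below it.

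Mesenteric fat from around the pancreas was profiled in male Wistar rats, 7 weeks of age and 225 to 250 g at the start, each housed alone. The cafeteria group ate a diet with 66% of calories as fat for 30 days and is described as obese (n = 2). The standard group ate chow with 8% of calories as fat for the same 30 days and is described as lean (n = 3). No genetic change is given for either group, and each array carried an independent sample. Values are log2 expression levels, so that a difference of 1 is a 2-fold change. A level can be compared between arrays for the same probe set, not between probe sets.

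IGFBP-3 is the main carrier of IGFs in blood, where it forms a complex with the acid-labile subunit. IGFBP-1 is made mainly by the liver and is held down by insulin. IGFBP-2 is a product of fat cell precursors and of liver, IGFBP-4 and IGFBP-5 are substrates of pappalysin proteases, IGFBP-6 prefers IGF-II, and IGFBP-7 is a related matrix protein that binds IGFs weakly.

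The defining fat cell markers were bright on all 5 arrays: the hormone adiponectin (Adipoq) read 12.94 to 13.28, and the lipid droplet protein Plin1 read 11.61 to 12.23. The array of standard replicate 1 also held transcripts of pancreatic acinar cells, with a mean of 9.10 over 8 acinar genes there and 4.22 to 4.80 on the other 4 arrays. Of these genes, Cpa1 read 9.37 on standard replicate 1 but also 7.38 and 9.07 on the cafeteria arrays. On standard replicates 2 and 3 it read 5.34 and 5.94. Array medians lay between 5.70 and 5.75. Over all 21729 probe sets above the filter, 0% passed an adjusted p of 0.05 (limma, Benjamini-Hochberg), while 6.62% were lower in cafeteria samples at an unadjusted p under 0.05, so no binding protein is reported as changed below. In bulk tissue, fewer cells of a type and less RNA per cell cannot be told apart.

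In the rat genome the family includes a pair of neighbouring genes on chromosome 14, Igfbp1 and Igfbp3, and a pair on chromosome 9, Igfbp2 and Igfbp5. In each pair the genes lie on opposite strands with their ends facing, and no other protein-coding gene of the RefSeq table lies between them. Their upstream stretches are shown as background on both pairs. A link between these stretches and the array readings was not tested. Each sequence is the 250 bases before the RefSeq gene start in build GRCr8, 5′ to 3′ on the gene's strand: Igfbp3 is chr14:86277945-86278194 on the minus strand, Igfbp1 is chr14:86261027-86261276 on the plus strand, Igfbp2 is chr9:81864561-81864810 on the plus strand, and Igfbp5 is chr9:81914188-81914437 on the minus strand. Capitals mark matches, on either strand, to a TATA box (TATAAA or TATATA), to CAAAACA, the core of the insulin response element known from the Igfbp1 promoter, and to a GC box (GGGCGG).
Igfbp3: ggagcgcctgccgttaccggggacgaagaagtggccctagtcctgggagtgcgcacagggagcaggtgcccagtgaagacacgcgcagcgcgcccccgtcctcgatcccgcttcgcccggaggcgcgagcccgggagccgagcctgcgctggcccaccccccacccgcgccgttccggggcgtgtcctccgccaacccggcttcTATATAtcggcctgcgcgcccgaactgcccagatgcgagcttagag
Igfbp1: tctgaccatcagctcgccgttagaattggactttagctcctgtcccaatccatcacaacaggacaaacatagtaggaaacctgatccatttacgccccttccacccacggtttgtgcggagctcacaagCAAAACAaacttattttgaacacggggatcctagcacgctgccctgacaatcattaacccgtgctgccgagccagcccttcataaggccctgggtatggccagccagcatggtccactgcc
Igfbp2: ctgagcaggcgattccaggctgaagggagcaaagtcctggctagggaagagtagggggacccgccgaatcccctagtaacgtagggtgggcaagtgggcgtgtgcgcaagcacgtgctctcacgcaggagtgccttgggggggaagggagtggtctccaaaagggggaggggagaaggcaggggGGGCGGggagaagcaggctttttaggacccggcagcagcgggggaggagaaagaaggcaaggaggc
Igfbp5: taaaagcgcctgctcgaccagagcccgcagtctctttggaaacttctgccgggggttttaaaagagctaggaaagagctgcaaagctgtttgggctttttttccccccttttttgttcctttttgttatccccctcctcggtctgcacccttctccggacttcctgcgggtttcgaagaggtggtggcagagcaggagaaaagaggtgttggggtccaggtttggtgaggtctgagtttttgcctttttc

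The Igfbp3 stretch held TATATA beginning 46 bases before the start, and 31 CpG dinucleotides against a median of 5 over all promoters in the table. The Igfbp1 stretch held CAAAACA beginning 121 bases before the start, and 9 CpGs. Igfbp2 had 1 GC box 66 bases before the start and 11 CpGs. The Igfbp5 stretch, with 8 CpGs, held none of these letters. The matches did not overlap. Of 33469 promoter stretches of the same length, 16.1% held a TATA match, 5.46% held CAAAACA and 30.5% held a GC box, and a match describes letters only. The array has no build, so probe positions were not set against these stretches.

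Igfbp3 was lower in both cafeteria samples than in every standard sample. On its brighter probe set, 1386881_at, it read 9.91 and 8.88 in cafeteria samples, against 10.38, 10.81 and 11.13 in standard samples. The other probe set, 1367652_at, read 9.27 and 8.57 in cafeteria samples, against 9.996, 10.36 and 10.52 in standard samples. Both probe sets therefore placed cafeteria replicate 2 lowest and standard replicate 3 highest, with no overlap between the diets. The first averaged 9.39 ± 0.73 in cafeteria samples and 10.77 ± 0.37 in standard samples (SD, n = 2 and 3), and the other 8.92 ± 0.50 in cafeteria samples and 10.29 ± 0.27 in standard samples. The difference was -1.38 ± 0.39 (SE) on the first, with a 95% interval of -2.42 to -0.34 (limma, adjusted p = 0.317), and -1.37 ± 0.27 on the other, with an interval of -2.10 to -0.64 (limma, adjusted p = 0.262). Standard samples were thus 2.61-fold and 2.59-fold above cafeteria samples on the linear scale, with an interval for the first of 1.27 to 5.35. An exact permutation test, two-sided, gave p = 0.1 for either probe set, the smallest value that 10 divisions of 5 arrays allow. Relative to the mean of the standard arrays, 1386881_at lay at -0.87 log2 units on cafeteria replicate 1 and at -1.90 on cafeteria replicate 2, so the difference was -0.87 when cafeteria replicate 2 was left out. Differences of at least 1 log2 unit downward were found in 0.566% of all probe sets above the filter. The series title names IGFBP-3, and whether the gene was picked from these arrays is not given in the sources used here.

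**Figure D1:**
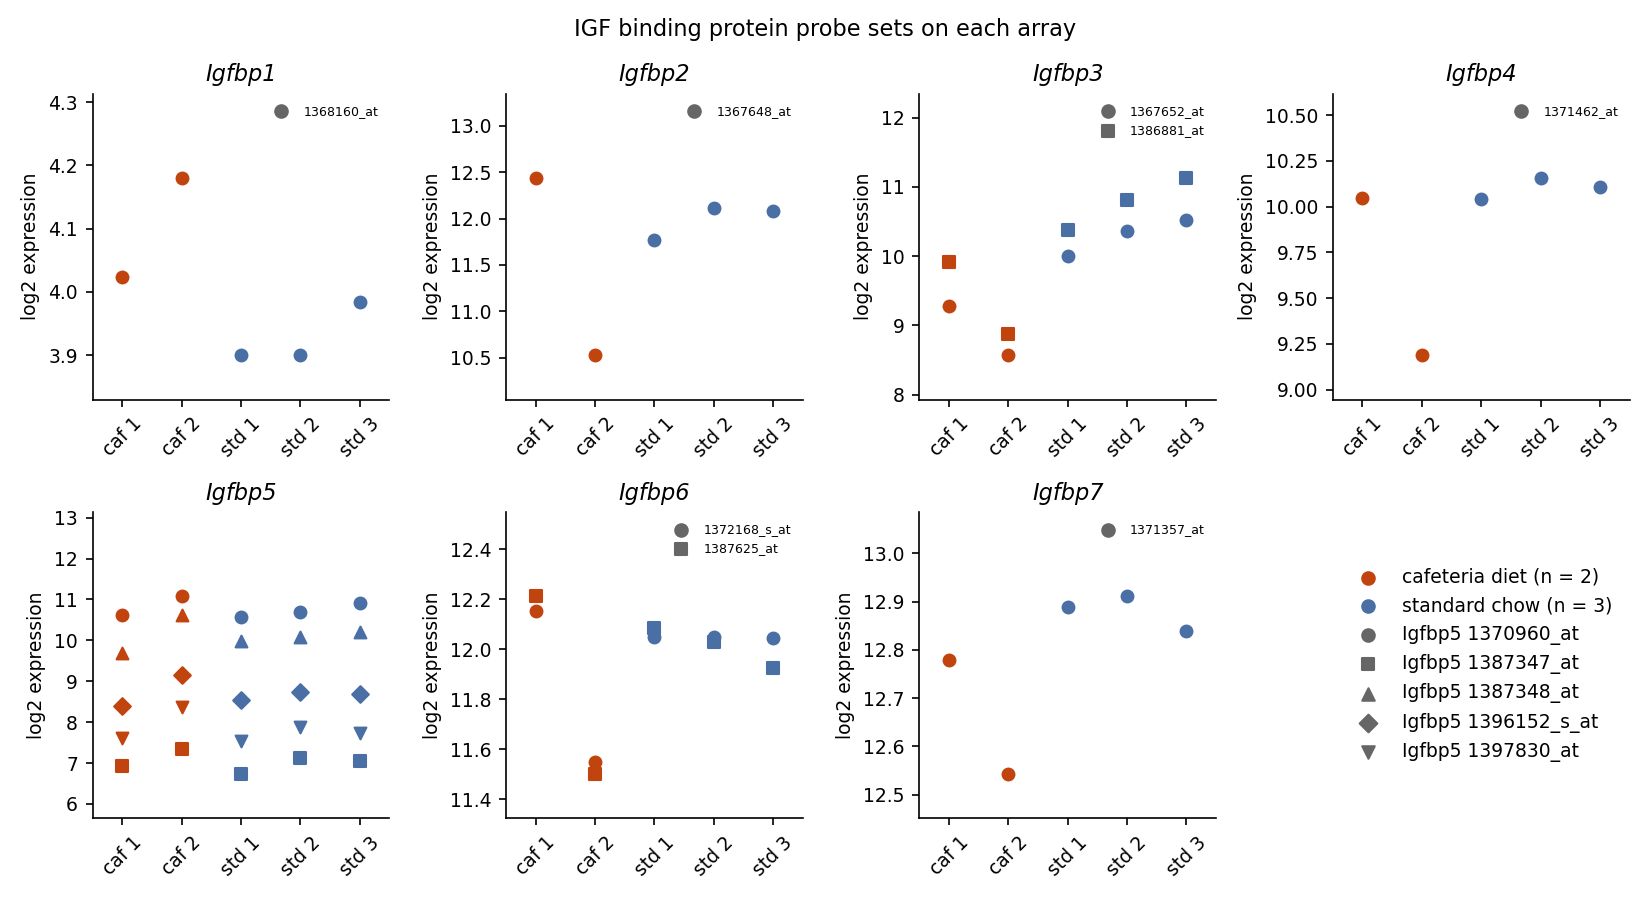
Log2 expression of every IGF binding protein probe set on each array, cafeteria (caf, orange, n = 2) left of standard (std, blue, n = 3), with a separate vertical scale per gene and a marker shape per probe set. Igfbp3 is lower on both cafeteria arrays, at 9.91 and 8.88 on 1386881_at, while Igfbp2 reads 12.44 and 10.52 there and spans the standard values.

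Igfbp1 was the only member below the filter. It read 4.02 and 4.18 in cafeteria samples, against 3.90, 3.90 and 3.98 in standard samples, and the values of standard replicates 1 and 2 were identical. Both cafeteria values were above the standard ones, by little: the difference was 0.17 ± 0.07, with a 95% interval of -0.01 to 0.35 in a fit without the filter (limma, adjusted p = 0.473). No detection calls were used here, so whether Igfbp1 transcript was above background on these arrays is not given.

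Igfbp2 showed opposite readings in the cafeteria samples. It read 12.44 and 10.52 there, against 11.77, 12.11 and 12.08 in standard samples, so cafeteria replicate 1 was the highest array and cafeteria replicate 2 the lowest. The mean difference, -0.51 ± 0.60, had a 95% interval of -2.09 to 1.08 (limma, adjusted p = 0.691). The value was 0.45 when cafeteria replicate 2 was left out and -1.46 when cafeteria replicate 1 was. Cafeteria replicate 2 minus cafeteria replicate 1 was -1.92 on this probe set. A gap of over 1 unit between them occurred in 1.75% of all probe sets above the filter, and in 2 of the 12 binding protein probe sets, those of Igfbp2 and Igfbp3 (1386881_at).

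Igfbp4 stood apart on a single array. It read 10.05 and 9.19 in cafeteria samples, against 10.04, 10.16 and 10.10 in standard samples. Cafeteria replicate 1 lay within the range of the standard arrays and cafeteria replicate 2 lay at -0.91 from their mean. The difference of -0.48 ± 0.27 (limma, adjusted p = 0.497) became -0.06 with cafeteria replicate 2 left out and -0.91 with cafeteria replicate 1 left out.

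Igfbp5 was above the standard arrays on cafeteria replicate 2, unlike the other members above the filter. Its brightest probe set, 1370960_at, read 10.61 and 11.08 in cafeteria samples, against 10.57, 10.70 and 10.91 in standard samples. On 1387348_at the values were 9.69 and 10.62 in cafeteria samples, against 9.99, 10.08 and 10.20 in standard samples. All 5 probe sets had cafeteria replicate 2 as the highest array, by 0.35 to 0.64 log2 units over the standard mean, and cafeteria replicate 1 was below the standard mean on all 5, at -0.40 to -0.06. The mean differences between diets therefore stayed small, at 0.07 to 0.27, with SE of 0.18 to 0.29 (limma, adjusted p = 0.623 to 0.926). Each changed sign when cafeteria replicate 2 was left out, with values from -0.40 to -0.06. Probe sets 1396152_s_at and 1397830_at were designed from the same source sequence in the annotation and are not separate evidence.

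Igfbp6, like Igfbp2, was highest in cafeteria replicate 1 and lowest in cafeteria replicate 2. On 1372168_s_at it read 12.15 and 11.55 in cafeteria samples, against 12.05 on all 3 standard arrays, which spanned only 0.005. Standard replicates 1 and 2 held the same value there, as they did on 14.3% of all probe sets on the array. On 1387625_at it read 12.21 and 11.50 in cafeteria samples, against 12.08, 12.03 and 11.93 in standard samples. The differences were -0.20 ± 0.19 and -0.16 ± 0.23 (limma, adjusted p = 0.625 and 0.749), and they were 0.10 and 0.20 without cafeteria replicate 2.

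Igfbp7, the matrix member, did not overlap between diets. It read 12.78 and 12.54 in cafeteria samples, against 12.89, 12.91 and 12.84 in standard samples. Both cafeteria arrays were below all standard arrays, with a difference of -0.22 ± 0.09, a 95% interval of -0.45 to 0.02 (limma, adjusted p = 0.417) and an exact permutation p = 0.1, two-sided. With cafeteria replicate 1 left out it was -0.34, and with cafeteria replicate 2 left out -0.10.

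**Figure D2:**
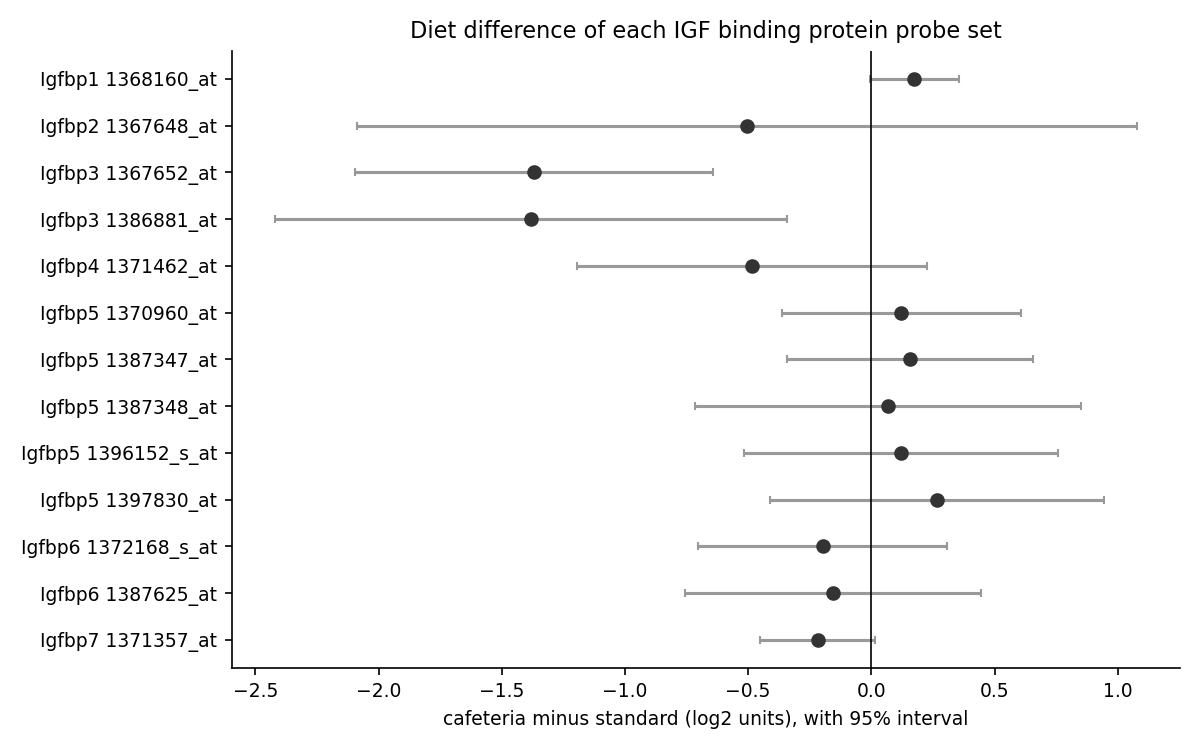
Cafeteria minus standard difference of each probe set in log2 units, with points for the estimates and bars for the 95% intervals of limma. The intervals of both Igfbp3 probe sets lie below 0, at -2.10 to -0.64 for 1367652_at and -2.42 to -0.34 for 1386881_at, before adjustment for the number of probe sets tested, and all other intervals include 0.

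Over the family, the mean was lower in cafeteria samples for 7 of the 12 probe sets above the filter, where 50.9% of all probe sets were lower, and the median difference was -0.18 against -0.0036 over all probe sets. By brightest probe set, 5 of 6 genes were lower. Groups that did not overlap, with cafeteria below standard, occurred in 3 of 12 probe sets, both of Igfbp3 and the one of Igfbp7, against 14.1% over all probe sets, and 0 of 12 had cafeteria above standard throughout, against 13.3%. Only the 2 probe sets of Igfbp3 had an unadjusted p under 0.05 (limma). Both were lower, against the 6.62% given above for that direction alone. In either direction the count was thus also 2 of 12, against 12.7% over all probe sets. Without cafeteria replicate 1 this count was 10 of 12 in either direction, against 19.2% over all probe sets, and without cafeteria replicate 2 it was 3 of 12, against 15.9%. With a single cafeteria array, its spread is assumed to be that of the standard arrays. Probe sets of the same gene share their transcript and are not separate evidence in these counts.

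The cafeteria arrays differed from each other across the family. Cafeteria replicate 2 was the lowest of all 5 arrays on 7 of 12 probe sets (22.3% over all probe sets) and the highest on the other 5, all of Igfbp5 (24.2%). It was thus an extreme on 12 of 12, where 46.5% of all probe sets had this array as an extreme. It fell outside the range of the standard arrays on 12 of 12, against 58.5%, whereas cafeteria replicate 1 did so on 8 of 12, against 55.2%. Only Igfbp3 and Igfbp7 had both cafeteria arrays on the same side of the standard range among the members above the filter. Igfbp2 and Igfbp6 had them on opposite sides on each of their probe sets, and so did Igfbp5 on 2 of its 5.

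**Figure D3:**
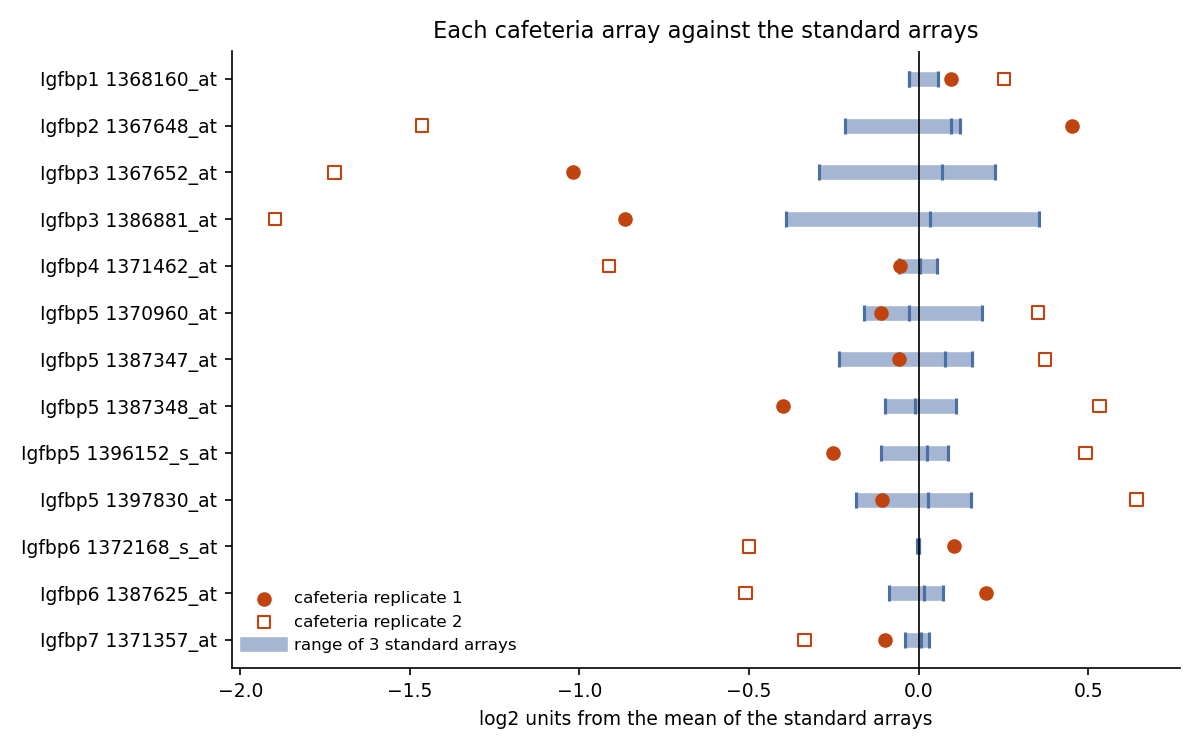
Position of cafeteria replicate 1 (filled circles) and cafeteria replicate 2 (open squares) for each probe set, in log2 units from the mean of the 3 standard arrays, whose range is the blue bar with a tick per array. Cafeteria replicate 2 lies outside the bar on every probe set shown, and both cafeteria arrays lie left of it for Igfbp3 and Igfbp7.

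Igfbp3 was then set against each paralogue on the same array, which asks whether its difference between diets exceeded theirs. Igfbp3 minus Igfbp4 was -0.14 and -0.31 in cafeteria samples, against 0.34, 0.65 and 1.03 in standard samples. Igfbp3 minus Igfbp2 was -2.53 and -1.65 in cafeteria samples, against -1.39, -1.30 and -0.95 in standard samples. All cafeteria values lay below all standard values in both. The same held for Igfbp5, Igfbp6 and Igfbp7, so Igfbp3 was lower relative to each of the 5 paralogues above the filter. It held for Igfbp1 too, but that probe set lay below the filter and varied little, so the value against it restates the Igfbp3 difference.

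The difference between diets in this relative value was -0.88 against Igfbp2, -0.90 against Igfbp4, -1.16 against Igfbp7, -1.18 against Igfbp6 and -1.50 against Igfbp5. Against Igfbp1, below the filter, it was -1.56. Each of the 6 exact permutation tests, two-sided, gave p = 0.1, and 0.1 after Benjamini-Hochberg adjustment over the 6, the smallest value possible, so none can pass 0.05 in this design. All 6 use the same Igfbp3 values and are not separate evidence. Leaving out an array changed no sign, which was fixed in advance because the groups did not overlap, so only the sizes are informative. With cafeteria replicate 1 left out, the value was -0.43 against Igfbp2 and -2.25 against Igfbp5. With cafeteria replicate 2 left out, it was -1.32 against Igfbp2, -0.76 against Igfbp5, -0.77 against Igfbp7 and -0.96 against Igfbp1.

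**Figure D4:**
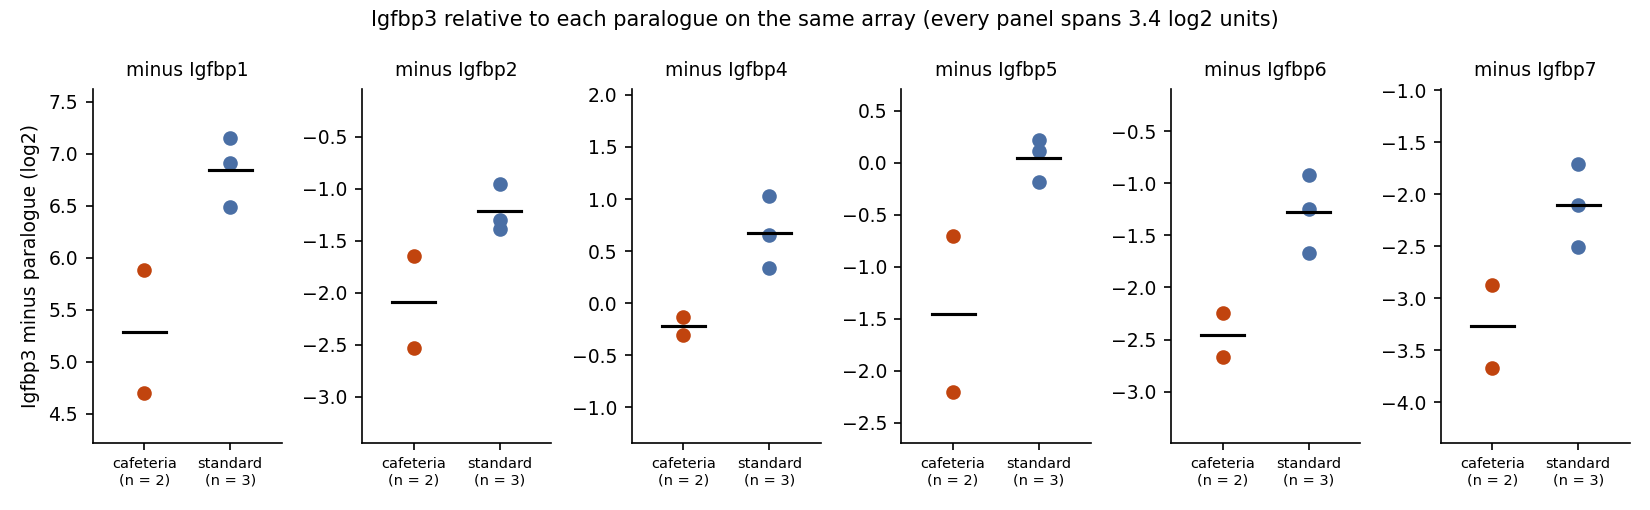
Log2 value of Igfbp3 (1386881_at) minus that of the brightest probe set of each paralogue on the same array, with 1 point per array, cafeteria left (n = 2) and standard right (n = 3), and black lines for the group means. In all 6 panels the cafeteria points lie below the standard points, for example -0.14 and -0.31 against 0.34 to 1.03 for Igfbp4.

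Cell type markers also differed between the cafeteria arrays, and their part in the binding protein readings was not tested. The mean of 7 mesothelial genes, which mark the lining of the mesentery, lay at 0.43 from the standard mean in cafeteria replicate 1 and at -0.32 in cafeteria replicate 2, while the standard arrays lay between -0.10 and 0.11. Cafeteria replicate 2 was the lowest array for 4 of the 7, against 22.3% of all probe sets. This was not particular to the mesothelial list. The same array was lowest for 5 of 7 macrophage genes and for 0 of 9 endothelial genes. It was highest for 7 of 8 adipocyte genes, against 24.2% of all probe sets. Mesothelin (Msln) read 11.41 and 10.27 in cafeteria samples, against 10.67 to 10.76 in standard samples. The mesothelial transcription factor Wt1 (1377223_at) read 9.89 and 8.69 in cafeteria samples, against 9.66 to 9.93 in standard samples. Msln, like Igfbp2 and Igfbp6, was thus highest in cafeteria replicate 1 and lowest in cafeteria replicate 2. Krt19 and Lrrn4 (1391264_at) had this order too, and the other genes of the list differed from it. Wt1 was not highest in cafeteria replicate 1. Krt18 read 7.06 and 6.97 in cafeteria samples, above the 6.26 to 6.96 of standard samples. Msln, Wt1, Krt18, Krt19 and Lrrn4 were picked after their values were seen.

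The endothelial list, 9 genes of the vessel lining, lay at -0.68 from the standard mean in cafeteria replicate 1 and at -0.21 in cafeteria replicate 2. In cafeteria samples 9 of 9 genes had lower means, against 50.9% of all probe sets. On both cafeteria arrays 5 of 9 were below all standard arrays, as Igfbp3 was, against 14.1%. The list was lower in cafeteria replicate 1 than in cafeteria replicate 2, while Igfbp3 was lowest in cafeteria replicate 2. A link between the list and Igfbp3 was not tested. The adipocyte list was 0.39 and 0.55 above the standard mean on the cafeteria arrays, and 7 of 8 genes were above all standard arrays on both cafeteria arrays, against the 13.3% given above. Fibroblast and preadipocyte genes were 0.26 and 0.17 above the standard mean, and smooth muscle and pericyte genes lay at -0.57 and -0.52 on the cafeteria arrays, against -0.81 to 0.86 on the standard arrays. Macrophage genes lay at -0.14 and -0.42 on the cafeteria arrays, against -0.30 to 0.17 on the standard arrays. With standard replicate 1, where acinar genes were high, left out, the Igfbp3 difference (1386881_at) was -1.58.

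**Figure D5:**
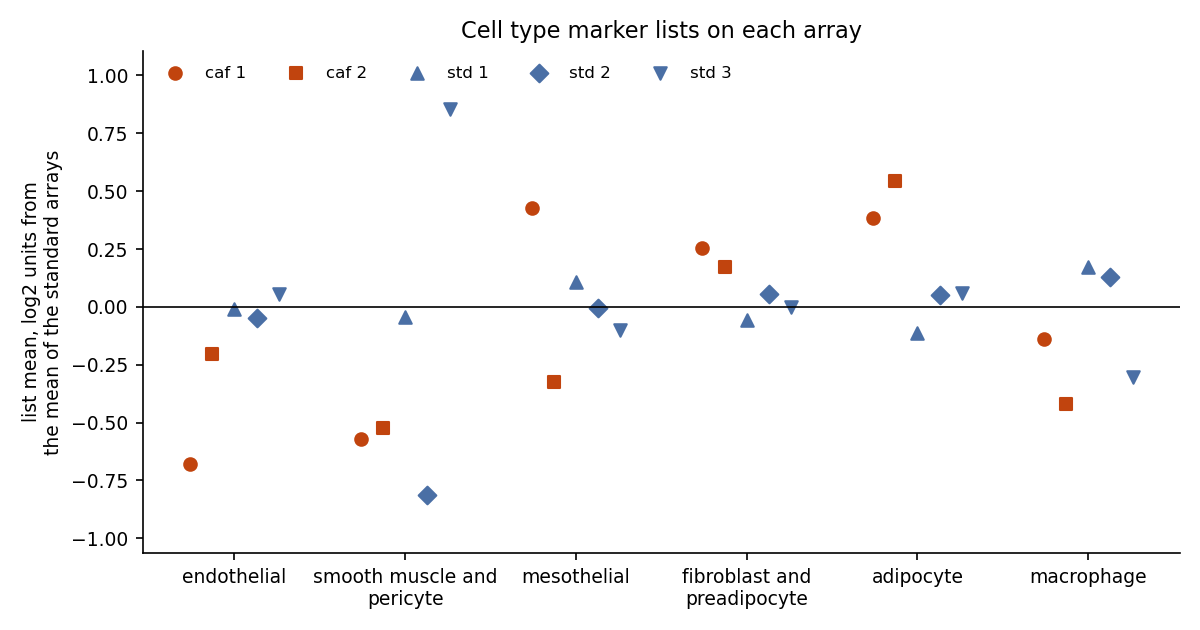
Mean of each cell type marker list on each array, in log2 units from the mean of the 3 standard arrays, for 7 to 10 genes per list, cafeteria arrays in orange left of standard arrays in blue. The mesothelial list lies at 0.43 in cafeteria replicate 1 and at -0.32 in cafeteria replicate 2, and the endothelial list at -0.68 and -0.21.

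The rest of the IGF system had no member past the threshold. Of 20 genes listed, 16 were above the filter by their brightest probe set, with 11 lower and 5 higher in cafeteria samples, against 50.9% lower and 48.4% higher over all probe sets. None passed an adjusted p of 0.05, 0 had an unadjusted p under 0.05 (limma), against 12.7% of all probe sets in either direction, and the median difference was -0.06. The ligand Igf1 read 12.66 and 12.89 in cafeteria samples, against 12.69, 12.54 and 12.58 in standard samples, a difference of 0.17 ± 0.10. The ligand Igf2 had 2 probe sets above the filter, with differences of -0.39 ± 0.39 on 1367571_a_at and 0.12 ± 0.05 on 1371206_a_at. The signalling receptor Igf1r gave -0.29 ± 0.17, and Igf2r, which clears IGF-II, gave -0.07 ± 0.06.

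By brightest probe set, Pappa2, Stc1, Htra1 and Stc2 had the smallest p-values (limma) after the ligands, Igf1r and Igf2r were set aside. All act on binding proteins, but several listed genes are of this kind, so the ranking is not a result about the kind. A dimmer probe set of Lrp1, 1396767_at, had a smaller p-value still, with a difference of 0.24 ± 0.09. The brightest Lrp1 probe set gave -0.05 ± 0.11. The protease Pappa2 read 4.55 and 3.99 in cafeteria samples, against 4.89, 6.53 and 5.43 in standard samples (1389579_at), without overlap. Its difference was -1.35 ± 0.54, with an interval of -2.78 to 0.08 (limma) and an exact permutation p = 0.2. Standard samples spread more widely (SD 0.83) than cafeteria samples (SD 0.40). No detection calls were used, so whether Pappa2 transcript was above background on the cafeteria arrays is not given. The other Pappa2 probe set, 1390158_at, gave 0.11 ± 0.18. Stanniocalcin 1 (Stc1), an inhibitor of pappalysins, read 7.89 and 7.05 in cafeteria samples, against 7.89, 7.88 and 8.46 in standard samples on 1377404_at. The Stc1 difference was -0.61 ± 0.33, and its other probe sets gave -0.25 ± 0.16 and -0.80 ± 0.33. Stc2, another such inhibitor, gave 0.14 ± 0.10 and the protease Htra1 gave 0.18 ± 0.12. Adjusted p lay between 0.413 and 0.546 for Pappa2 (1389579_at), Stc1 (1377404_at), Stc2 and Htra1 (limma).

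The gene profiles nearest to that of Igfbp3 were taken as those with the smallest root mean square distance from 1386881_at, after each probe set was centred on its mean over the 5 arrays. The second Igfbp3 probe set lay at 0.13. The nearest other genes were Ddx60, an RNA helicase induced by interferon, at 0.20, Pik3r1, the regulatory subunit of PI3-kinase, at 0.21, Fmo1, a flavin monooxygenase, also at 0.21, Wipf3, a WASP-interacting protein, at 0.22, and Slfn4, a schlafen family gene, at 0.26. Pik3r1 read 8.13 and 6.59 in cafeteria samples, against 8.41, 8.54 and 8.85 in standard samples, and Fmo1 read 8.93 and 7.97 in cafeteria samples, against 9.94, 9.90 and 10.11 in standard samples. Among the paralogues the nearest was Igfbp4, at 0.49, then Igfbp2 at 0.53, Igfbp6 (1372168_s_at) at 0.64 and Igfbp7 at 0.67, and the Igfbp5 probe sets were the farthest, at 0.88 to 1.00. Probe sets were centred but not scaled, so a distance reflects how much a probe set varies as well as its order over the arrays. The ranking of the paralogues is thus not one of likeness in order alone. Over 5 arrays such distances describe these samples only.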

How the data were processed

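The authors deposited log2 expression values, 1 per probe set and array, from Affymetrix rat arrays. RMA and the affy package are named without versions in the submitters' processing notes; RMA subtracts background, equalises the array distributions and summarises probes, which can hide a shift shared by most transcripts. No source used here names an array batch.

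Groups follow the sample titles. After removal of 57 control probe sets, the filter kept 21729 probe sets. Cafeteria minus standard was fitted with lmFit and eBayes (limma 3.58.1, R 4.3.3), two-sided, with Benjamini-Hochberg adjustment over all probe sets kept and a threshold of 0.05. There were 3 residual degrees of freedom. The procedure was tested on simulated arrays. Igfbp1 was read from the same fit without the filter. Single values were also tested by exact permutation over 10 divisions of the 5 arrays. Symbols came from GEO's platform annotation; all 7 genes matched the RefSeq table (GRCr8), the source of the promoter sequences. A gene with several probe sets is represented by the brightest over all arrays. Named were all 7 binding proteins, the ligands, the receptors Igf1r and Igf2r, up to 4 further genes with the smallest p per related list, and the 5 nearest profiles. Msln, Wt1, Krt18, Krt19, Lrrn4, Cpa1, Lrp1 and Ccn1 were named after their values were seen. The members and lists were chosen with earlier results of these data known. Same-numbered arrays did not deviate together (correlations of deviations 0.08 and -0.04), so the numbers were not taken as pairs. Alternatives were other filters, normalizations, variance models and array weights, a block for the replicate number, and fits with 1 array left out. Figures used matplotlib 3.10.9. The limma p-values set each difference against the spread between these samples, moderated over all probe sets kept. The permutation p-values rank the observed difference among the 10 divisions. The number of arrays limits the precision of both.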

Additional observations from a re-analysis of the deposited data

How the results depend on the processing

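No probe set of any gene passed an adjusted p of 0.05 under any of 13 alternative settings (limma, 1981 to 4171 at an unadjusted p under 0.05). Of 156 values of binding protein probe sets under these settings, 148 kept their direction and stayed short of the threshold, and the 8 that changed sign all came from leaving out cafeteria replicate 2. The other filters and variance models cannot change a difference, only its p-value, so the directions under them were fixed in advance. So were the directions of Igfbp3 and Igfbp7 with an array left out, because their groups did not overlap. Over the fits that left out an array, Igfbp2 ran from -1.46 to 0.45, Igfbp6 from -0.50 to 0.10 (1372168_s_at) and from -0.51 to 0.20 (1387625_at), and Igfbp5 from -0.11 to 0.35 (1370960_at), -0.057 to 0.37 (1387347_at), -0.40 to 0.53 (1387348_at), -0.25 to 0.49 (1396152_s_at) and -0.11 to 0.64 (1397830_at). Igfbp3 ran from -1.90 to -0.87 (1386881_at) and from -1.72 to -1.02 (1367652_at), and its adjusted p was 0.166 to 0.565 over all settings. With a replicate block, Igfbp3 gave -1.20 (limma, adjusted p = 0.527) and -1.26 (adjusted p = 0.482), and the block changed no call. These differences equal those without standard replicate 3, the only array with that number. The median of the IGF system list ran from -0.092 to -0.022 over the fits that left out an array. The numbers of arrays, 2 and 3, and the lack of detection calls for dim probe sets such as Igfbp1 limit these results.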

Other observations

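Proteins that carry an IGFBP-like domain without belonging to the family were listed as well, 13 in all, of which 10 were above the filter. Htra1 is on this list and on that of the IGF system. Their means were higher in cafeteria samples for 8 and lower for 2, against 48.4% higher and 50.9% lower over all probe sets, with a median difference of 0.15. None passed an adjusted p of 0.05, and 1 of 10 had an unadjusted p under 0.05 (limma), against 12.7% of all probe sets. That gene was Esm1, an endothelial proteoglycan, which read 6.09 and 6.24 in cafeteria samples, against 6.55, 6.42 and 6.47 in standard samples, a difference of -0.32 ± 0.08 (limma, adjusted p = 0.281). Crim1, a transmembrane protein that binds BMPs, differed by 0.19 ± 0.08, Kazald1 by 0.27 ± 0.16 and Ccn5, a matricellular protein of fat precursors, by 0.82 ± 0.43. Ccn5 read 8.37 and 7.09 in cafeteria samples, against 6.89, 6.63 and 7.21 in standard samples, so its mean followed cafeteria replicate 1.

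Ccn1, an early response gene coding for a matricellular protein, read 5.15 and 7.83 in cafeteria samples, against 5.18, 5.11 and 5.70 in standard samples. It was picked after its values were seen, as the list member with the largest gap between the cafeteria arrays. Cafeteria replicate 2, where Ccn1 was high, is also the array on which Igfbp2, Igfbp3, Igfbp4, Igfbp6 and Igfbp7 were lowest and Igfbp5 highest. That array was the lowest or highest on 46.5% of all probe sets, and a link between Ccn1 and the binding proteins was not tested.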
